A study of Homo sapiens with 15 samples.

Results

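The genes described here are 46 genes of DNA replication and mitosis, chosen by name from the table of read counts, which lists 60286 genes. They were followed in THP-1 cells, a human monocytic leukaemia line, after stimulation with bacterial extracellular vesicles (BEVs), small membrane particles that bacteria shed. Total RNA was sequenced from 5 groups of 3 libraries each. The control group NC received PBS. EUC and EPL received 1 μg/mL of E. coli BEVs, isolated by ultracentrifugation (UC) in EUC and by precipitation with ε-poly-L-lysine (PL) in EPL. SUC and SPL received 10 μg/mL of S. aureus BEVs, isolated in the same respective ways. Incubation lasted 6 h, while the labels give day 0 for all samples. All groups are the same line, so they stand for dividing leukaemia cells and not for blood monocytes, and no group received PL without BEVs in the libraries analysed here. No label says that the 3 libraries of a group came from separate cultures, and p-values then measure only the spread between these libraries, which may be technical.

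A human cell prepares to copy its DNA in G1 phase, when the loaders CDC6 and CDT1 place the ring-shaped helicase MCM2 to MCM7 on replication origins. In S phase CDC45 and the GINS complex switch the helicase on, and polymerases, the sliding clamp PCNA and the enzymes of nucleotide supply carry out the copying. D and E cyclins with CDK4, CDK6 and CDK2 drive entry into S phase through the E2F factors, p21 (CDKN1A) and p27 (CDKN1B) restrain these kinases, and CDK1 with A and B cyclins drives mitosis, which the Aurora and Polo kinases and the spindle checkpoint then steer. Lines such as THP-1 divide without stopping, so these genes are expressed before any stimulation.

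Of the 46 genes, 45 had enough counts to be tested, among 17198 genes tested in all. A gene is said to have risen or fallen here where its adjusted p in edgeR's quasi-likelihood test was at most 0.01, with Benjamini-Hochberg adjustment over all 17198 genes, and it is called a DEG where its log2 fold change was also at least 1 in size. Levels are CPM, counts scaled to a common library size after TMM normalization. The main contrast set the mean of the 4 stimulated groups against NC. Each stimulated group was also set against NC, and these comparisons share the same 3 NC libraries.

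Library totals ran from 14399421 to 16637345 counted reads. When the 12 stimulated libraries were cut into 2 clusters over all tested genes, 4 (EUC2, EUC3, EPL1 and SUC3) formed the smaller cluster. Such a cut always gives 2 clusters, so it does not show that the 4 stand apart from the other 8. Counts of EUC2 differed less from EUC1 than from EUC3 (mean chi-square per gene 7.11 against 22.9). Results that rest on the 4 libraries are given below with and without them. Ribosomal protein genes took 7.19% of reads in EUC3 and 7.24% in SUC3, against 4.73 to 5.97% in the other 10 stimulated libraries. Of the 10 monocytic marker genes, checked against the label THP-1, 9 were tested. CD68 was at 0 to 0.192 CPM, and whether its reads were left uncounted was not tested. The 10 genes summed to 1521 to 1556 CPM in NC and 1868 to 2484 in stimulated libraries, but 2 of the 9 rose and 4 fell. SPI1, a myeloid transcription factor, rose from 471 ± 15.9 CPM to means of 960 to 1198, and CSF1R rose too. CEBPA, LYZ, CD33 and MPO fell, and the other 3 tested did not pass. The median log2 fold change of all 9 was -0.15. Markers of other cell types summed to 12.8 to 20.5 CPM over all libraries, with CD3D, KRT19 and HBB at 0. Of these 12 markers 4 were tested, of which 1 rose as a DEG (log2 fold change 1.96) and 1 fell. The part of either list in the results was not tested.

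In the main contrast 8 of the 45 genes rose and 10 fell, and 27 did not pass the test. Among all tested genes 17.9% rose and 16.9% fell, so that the shares among the 45 genes, 17.8% and 22.2%, were near those of all tested genes. Without NC1 or NC2, 5 genes rose, where 14% and 14.1% of all tested genes did. By step of the cycle, the counts were as follows. Of the 10 genes of origin licensing and the helicase, 8 fell and none rose, with a median log2 fold change of -0.38 against -0.00 over all tested genes, and DESeq2 also called 8 lower and 0 higher. Of the 7 genes of G2 phase and mitotic entry, 3 rose and none fell, with a median of 0.23. Both CDK inhibitors rose, and CDKN1A and CCND1 were the only DEGs, both higher, where 8.99% of all tested genes were DEGs with higher levels. No gene was a DEG with a lower level in edgeR or DESeq2, where 5.13% of all tested genes were in edgeR. An unadjusted p under 0.05 was found for 27 of the 45 genes, and for 8882 of all 17198 tested genes. With libraries scaled by their totals alone, the median of all tested genes moved to -0.13, 5 of the 45 genes rose and 13 fell, and 14% of all tested genes rose and 24.3% fell. The 8 genes of the spindle and its checkpoint had a median of 0.01. These lists were chosen with earlier results of these data known, and the counts are a description.

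**Figure D1:**
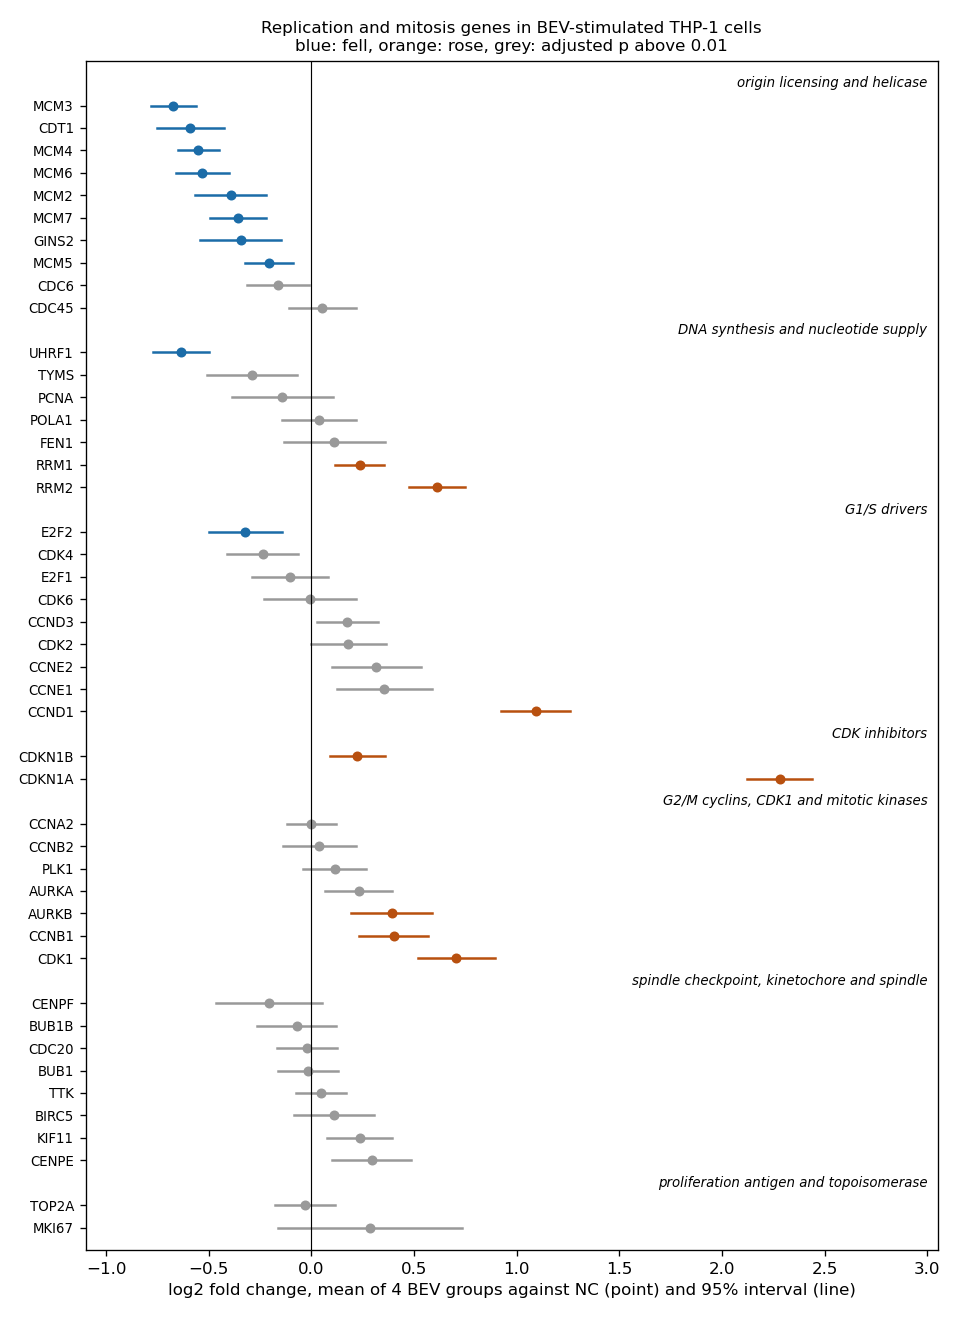
Log2 fold change of the 45 tested genes in the mean of the 4 stimulated groups against NC, ordered by role, with the gene on the vertical axis. Points are estimates and lines are 95% intervals, coloured by whether the gene fell, rose or had an adjusted p above 0.01. The licensing genes lie mostly to the left of 0, down to -0.67 for MCM3, and CDKN1A lies farthest to the right at 2.28.

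The promoters of 3 genes that fell (MCM3, MCM6 and CDT1) and 3 that rose (RRM2, CDK1 and CCNB1) are printed to show short motifs known from cell cycle genes. These 6 were chosen after their values and motif matches were seen. Each run goes from 250 bases before the transcript start to 30 bases from it, read 5′ to 3′ on the gene's own strand, from RefSeq on GRCh38.p14. Capitals mark 3 motifs, searched on both strands. They are the E2F element (TTTGGCGC, TTTCCCGC, TTTCGCGC or TTTGCCGC), which E2F factors are known to bind, the cell cycle genes homology region or CHR (TTTGAA or TTTAAA), known from genes expressed in G2 and mitosis, and the CCAAT box (CCAAT), a general promoter motif that the factor NF-Y binds. No match of one motif overlaps a match of another, while the E2F matches on the 2 strands of MCM6 overlap each other.
MCM3 (chr6:52284713-52284992, minus strand): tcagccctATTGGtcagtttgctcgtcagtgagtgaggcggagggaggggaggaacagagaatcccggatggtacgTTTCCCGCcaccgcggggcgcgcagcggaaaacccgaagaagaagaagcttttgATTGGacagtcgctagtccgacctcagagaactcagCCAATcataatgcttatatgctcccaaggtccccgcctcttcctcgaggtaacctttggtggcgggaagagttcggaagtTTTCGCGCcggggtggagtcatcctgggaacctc
MCM6 (chr2:135876414-135876693, minus strand): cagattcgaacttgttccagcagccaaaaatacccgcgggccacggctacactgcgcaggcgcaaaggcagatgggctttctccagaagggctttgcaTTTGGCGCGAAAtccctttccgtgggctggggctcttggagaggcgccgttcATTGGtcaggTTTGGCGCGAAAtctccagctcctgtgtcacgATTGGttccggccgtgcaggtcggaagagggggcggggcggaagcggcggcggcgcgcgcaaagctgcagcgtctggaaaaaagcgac
CDT1 (chr16:88803539-88803818, plus strand): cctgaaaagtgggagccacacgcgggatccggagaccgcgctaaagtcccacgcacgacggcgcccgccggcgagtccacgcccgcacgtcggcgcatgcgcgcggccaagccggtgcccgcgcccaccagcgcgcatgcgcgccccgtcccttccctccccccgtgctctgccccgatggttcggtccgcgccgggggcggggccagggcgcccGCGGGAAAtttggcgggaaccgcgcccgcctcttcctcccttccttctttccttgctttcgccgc
RRM2 (chr2:10122489-10122768, plus strand): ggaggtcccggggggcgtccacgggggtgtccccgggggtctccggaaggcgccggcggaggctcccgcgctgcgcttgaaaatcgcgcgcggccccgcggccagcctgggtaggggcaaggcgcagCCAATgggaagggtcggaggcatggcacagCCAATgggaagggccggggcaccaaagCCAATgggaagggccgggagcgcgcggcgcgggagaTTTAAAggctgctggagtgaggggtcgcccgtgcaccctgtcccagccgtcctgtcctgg
CDK1 (chr10:60778081-60778360, plus strand): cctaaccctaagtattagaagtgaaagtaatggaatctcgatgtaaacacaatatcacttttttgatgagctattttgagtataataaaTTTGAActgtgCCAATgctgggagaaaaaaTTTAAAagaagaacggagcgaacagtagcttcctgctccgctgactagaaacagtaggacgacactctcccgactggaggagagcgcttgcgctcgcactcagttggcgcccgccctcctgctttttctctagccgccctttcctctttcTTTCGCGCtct
CCNB1 (chr5:69166900-69167179, plus strand): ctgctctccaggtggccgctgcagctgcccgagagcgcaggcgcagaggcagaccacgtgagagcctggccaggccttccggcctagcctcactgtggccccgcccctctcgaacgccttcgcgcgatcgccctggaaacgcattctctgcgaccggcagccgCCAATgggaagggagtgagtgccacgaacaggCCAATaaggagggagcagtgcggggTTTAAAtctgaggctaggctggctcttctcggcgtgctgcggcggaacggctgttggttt

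MCM3, a helicase subunit, holds E2F elements that begin 174 and 4 bases before its start. MCM6, another subunit, holds 4 E2F matches at 2 places, the letters TTTGGCGC beginning 152 and 90 bases before the start. CDT1, the helicase loader, holds 1 on the opposite strand, at 35 bases before the start. RRM2, the small subunit of ribonucleotide reductase, holds no E2F match but a TTTAAA at 30 bases before the start and 3 CCAAT boxes. CCNB1, which encodes cyclin B1, likewise holds a TTTAAA at 30 bases before the start, with 2 CCAAT boxes. CDK1, the kinase of mitotic entry, holds both motifs, with CHR matches at 161 and 131 bases before the start and an E2F match 20 bases after it.

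The table of promoters held 37 of the 46 genes. Among the genes that moved, MCM4, MCM5 and CCND1 were not in it, and the first listed promoter of each was searched over 300 bases. An E2F element was found in 3.33% of all 27305 promoters of that length. It was present in 8 of the 8 searched genes that fell, in 1 of 7 searched that rose (CDK1) and in 5 of 22 searched that did not pass the test. The 8 were MCM2, MCM3, MCM6, MCM7, CDT1, GINS2, UHRF1 and E2F2, and the 5 were CDC6, PCNA, POLA1, TYMS and E2F1. A CHR match, present in 24.3% of all promoters, was found in 0 of 8 genes that fell, in 5 of 7 that rose (not in CDKN1A or AURKB) and in 10 of 22 of the others. CCAAT boxes, present in 35.7% of all promoters, were found in 5 of 8, 6 of 7 and 14 of 22. Whether these shares differ between genes that fell and rose was not tested. They are matches of letters and not measured binding sites.

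All 6 helicase subunits fell. MCM3 had 615, 636 and 637 CPM in the NC libraries, 350, 372 and 372 in EUC, 406, 391 and 365 in EPL, 407, 411 and 428 in SUC and 412, 427 and 405 in SPL. All 12 stimulated libraries were below all 3 NC libraries. The log2 fold change was -0.67 (SE 0.0511, adjusted p = 7.74e-09), a level of 0.627 times that of NC. MCM4 had 575, 555 and 573 CPM in NC, 355, 365 and 362 in EUC, 369, 369 and 374 in EPL, 414, 433 and 411 in SUC and 406, 397 and 402 in SPL. It fell by 0.55 on the log2 scale (SE 0.0469, adjusted p = 3.55e-08), with narrow groups that stayed well apart from NC. MCM6 had 227, 214 and 223 CPM in NC and fell to 127, 140 and 156 in EUC, 143, 141 and 146 in EPL, 162, 175 and 182 in SUC and 153, 152 and 164 in SPL. Its log2 fold change was -0.53 (SE 0.0613, adjusted p = 1.53e-06).

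MCM2, MCM7 and MCM5, the other subunits of the ring, had smaller estimates. MCM2 had 204 ± 3.9 CPM (SD, n = 3) in NC and 141 ± 17.6, 155 ± 11.2, 160 ± 21.2 and 166 ± 11.2 in EUC, EPL, SUC and SPL, a log2 fold change of -0.39 (adjusted p = 0.000735). MCM7 went from 406 ± 22.5 CPM in NC to between 297 ± 22.1 in EPL and 336 ± 23.3 in SPL (log2 fold change -0.36, SE 0.0646, adjusted p = 0.0002). The exons of MCM2 share 1113 bases with a gene without a symbol, and those of MCM7 share 392 with AP4M1, both on the opposite strand. The strand setting of the counting is not given in the sources used here. MCM5 had 310, 302 and 304 CPM in NC, 245, 252 and 267 in EUC, 275, 250 and 245 in EPL, 271, 261 and 282 in SUC and 279, 281 and 268 in SPL. Its log2 fold change of -0.21 (SE 0.0547, adjusted p = 0.00509) was the smallest among the genes that fell, although the 12 stimulated libraries again lay below the 3 of NC. This call was lost without the filter on low counts (adjusted p = 0.0528), and when NC1, NC2, NC3, EUC2, EPL2, SUC2, SPL1 or SPL3 was left out (adjusted p up to 0.0346).

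Of the loaders and activators, CDT1 and GINS2 fell, and CDC6 and CDC45 did not pass the test. CDT1, which brings the helicase to origins, had 204, 187 and 203 CPM in NC, 117, 131 and 136 in EUC, 154, 118 and 120 in EPL, 128, 136 and 148 in SUC and 137, 132 and 124 in SPL. It fell by 0.59 on the log2 scale (SE 0.0772, adjusted p = 6.82e-06), again with no overlap between stimulated and NC libraries. Its partner in loading, CDC6, had 80.2 ± 2.05 CPM in NC and means of 68.4 to 74.3 in the stimulated groups. The log2 fold change of -0.16 did not pass (adjusted p = 0.0744). It passed with library totals alone (-0.29, adjusted p = 0.000805) and was -0.21 without the 4 libraries of the smaller cluster. GINS2, a subunit of the GINS complex, had 34.6, 38.5 and 41.4 CPM in NC, 25, 27.6 and 34.3 in EUC, 28.3, 27.1 and 29.3 in EPL, 28.6, 32.8 and 38 in SUC and 28.7, 31 and 31 in SPL. It fell by 0.34 (SE 0.0932, adjusted p = 0.0059), but SUC3 lay inside the NC range, and the call was lost without NC2, NC3, EUC2, EPL2, SUC2, SPL1 or SPL3 (adjusted p up to 0.0598). CDC45, the helicase activator, had 52.3, 55.1 and 59.5 CPM in NC, 49.9, 59 and 60.5 in EUC, 58.9, 53.4 and 56.5 in EPL, 55.5, 58.2 and 65.7 in SUC and 54.8, 63.2 and 57.4 in SPL. Stimulated and NC libraries overlapped, with a log2 fold change of 0.05 and a 95% interval of -0.11 to 0.21. In bulk RNA, fewer cells in a phase of the cycle and less RNA per cell cannot be told apart, here or in the results that follow.

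**Figure D2:**
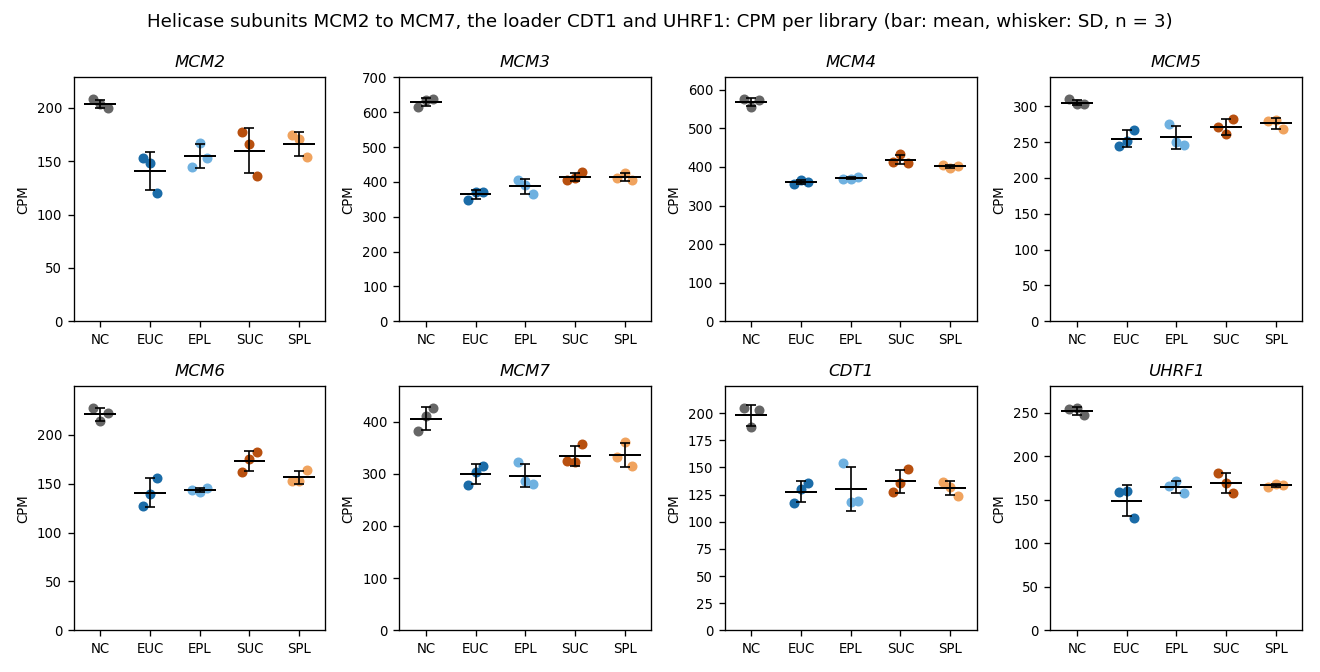
CPM per library of MCM2 to MCM7, CDT1 and UHRF1 in the 5 groups, with bars for the mean and whiskers for the SD of 3 libraries. In each panel the 12 stimulated libraries lie below the 3 NC libraries, and for MCM4 the SUC and SPL libraries (397 to 433 CPM) lie above those of EUC and EPL (355 to 374 CPM).

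Among the 7 genes of DNA synthesis and nucleotide supply, 2 rose, 1 fell and 4 did not pass the test. UHRF1, which carries DNA methylation over to the new strand, had 254, 255 and 247 CPM in NC, 158, 160 and 129 in EUC, 166, 171 and 158 in EPL, 180, 169 and 158 in SUC and 165, 168 and 167 in SPL. It fell by 0.63 on the log2 scale (SE 0.0642, adjusted p = 3.05e-07), a size like that of MCM3. The ribonucleotide reductase subunits went the other way. RRM2 had 116, 126 and 123 CPM in NC, 181, 201 and 205 in EUC, 170, 184 and 194 in EPL, 177, 186 and 188 in SUC and 180, 173 and 189 in SPL, and rose by 0.61 (SE 0.0638, adjusted p = 4.58e-07), or 1.53-fold. RRM2 has 3 annotated pseudogenes, with which reads may be shared. RRM1, the large subunit, rose from 148 ± 2.25 CPM in NC to between 168 ± 0.932 in SPL and 181 ± 11.2 in EUC, a log2 fold change of 0.23 (adjusted p = 0.00267) that did not pass when libraries were scaled by their totals alone (0.10), nor without the filter on low counts (adjusted p = 0.0225), nor when any single NC library was left out (adjusted p up to 0.0213).

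PCNA, the sliding clamp, had 110 CPM in each of the 3 NC libraries, 86.4, 88.4 and 128 in EUC, 108, 79.6 and 89.7 in EPL, 91.6, 99.7 and 130 in SUC and 95.9, 99.4 and 102 in SPL. Only EUC3 and SUC3 lay above NC. The log2 fold change of -0.14 had an interval of -0.39 to 0.11 (adjusted p = 0.352). FEN1, the flap endonuclease, and POLA1, the catalytic subunit of polymerase alpha, had log2 fold changes of 0.11 and 0.04, and TYMS, thymidylate synthase, had -0.29 (adjusted p = 0.0301). None of these 3 passed, although TYMS did with library totals alone (-0.42, adjusted p = 0.00185).

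Of the 9 tested genes that drive entry into S phase, 1 rose, 1 fell and 7 did not pass the test. CCND1, which encodes cyclin D1, had 33.1, 30.2 and 31.4 CPM in NC, 67.3, 69.2 and 58.5 in EUC, 66.2, 75.2 and 71.6 in EPL, 65.9, 71.2 and 62.8 in SUC and 73.3, 64.9 and 61.2 in SPL. The level was 2.13-fold higher in stimulated cells (log2 fold change 1.09, SE 0.0798, adjusted p = 4.81e-09), with the lowest stimulated library far above the highest of NC. With library totals alone the log2 fold change was 0.96, still passed but under the limit for a DEG. Exons of CCND1 share 497 bases with LTO1 on the opposite strand. CCND3, cyclin D3, had 298, 312 and 298 CPM in NC, 324, 343 and 381 in EUC, 379, 314 and 316 in EPL, 318, 323 and 360 in SUC and 359, 346 and 337 in SPL. Every stimulated library exceeded NC, yet the log2 fold change of 0.17 did not pass (SE 0.0707, adjusted p = 0.0542). CCND2, cyclin D2, was too low to test, with 8, 4 and 7 reads in the NC libraries (0.512, 0.235 and 0.417 CPM) and 0 to 0.276 CPM in the stimulated ones. Per kilobase of exon in NC cells, CCND3 had 52.5 CPM, CCND1 6.63 and CCND2 0.049, which puts cyclin D3 highest of the D cyclins before stimulation.

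E2F2 had 34.4, 30.2 and 32.4 CPM in NC, 26.9, 22.7 and 23.1 in EUC, 26.8, 27 and 26.8 in EPL, 26.9, 24.4 and 23.8 in SUC and 31.2, 28 and 22.9 in SPL. It fell by 0.32 on the log2 scale (SE 0.0846, adjusted p = 0.00482), with SPL1 inside the NC range, and did not pass without NC1 (adjusted p = 0.0445) or NC3 (adjusted p = 0.0237). E2F1 had a log2 fold change of -0.10 with an interval of -0.29 to 0.08. The E cyclins CCNE1 (0.35, adjusted p = 0.014) and CCNE2 (0.32, adjusted p = 0.0188) had all stimulated libraries above NC but missed the threshold. DESeq2 called CCNE1, which also passed without the filter on low counts (adjusted p = 0.00251), without EUC1 (0.0036) or without EUC3 (0.00856), and CCNE2 passed without EUC3 or EPL1 (0.00549 and 0.00756). Exons of CCNE2 share 1629 bases with INTS8 and those of CDK4 share 1369 bases with TSPAN31. CDK2, CDK4 and CDK6, the kinases of G1 and S phase, had log2 fold changes of 0.18, -0.24 and -0.01, none of which passed, although CDK4 did without EUC3 (adjusted p = 0.00774) and with library totals alone (-0.37, adjusted p = 0.000279).

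CDKN1A, which encodes the CDK inhibitor p21, changed most of all 45 genes. Its NC libraries had 59.4, 60.4 and 64.6 CPM, and the stimulated libraries had 330, 356 and 376 in EUC, 325, 294 and 287 in EPL, 246, 245 and 275 in SUC and 289, 302 and 283 in SPL. Stimulated cells thus held 4.86-fold more (log2 fold change 2.28, SE 0.0747, adjusted p = 1.2e-13), and the groups stood in the order EUC, EPL, SPL and SUC by their means of 354 ± 23.2, 302 ± 20.2, 291 ± 9.3 and 256 ± 17.2 CPM. Libraries of EPL and SPL overlapped. CDKN1B, which encodes p27, had 42.3, 42.9 and 42.2 CPM in NC, 52.7, 49.3 and 55.6 in EUC, 51.7, 52 and 48.5 in EPL, 46.7, 45.8 and 50.6 in SUC and 45.5, 50.4 and 46.4 in SPL. It rose by 0.22 (SE 0.0629, adjusted p = 0.00783), a small shift that did not pass without the filter on low counts (adjusted p = 0.0654), with the replicate block (adjusted p = 0.0109) or with library totals alone (0.09). It also missed the threshold without any one of the NC and SPL libraries and without EPL2, SUC1 or SUC3 (adjusted p up to 0.0413).

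Of the 7 regulators of mitotic entry, CDK1, CCNB1 and AURKB rose. CDK1 had 101, 100 and 104 CPM in NC, 152, 168 and 204 in EUC, 165, 157 and 163 in EPL, 154, 164 and 202 in SUC and 147, 157 and 157 in SPL. It rose by 0.71 on the log2 scale, or 1.63-fold (SE 0.0886, adjusted p = 4.21e-06), and its highest values were those of EUC3 and SUC3. CCNB1 had 116 ± 2.21 CPM in NC and between 145 ± 1.71 in SPL and 168 ± 20.3 in EUC, a log2 fold change of 0.40 (adjusted p = 0.000459). AURKB, the Aurora kinase of the centromere, rose from 24.6 ± 1.96 CPM to between 30.1 ± 0.675 in SUC and 35.1 ± 2.54 in EUC (0.39, adjusted p = 0.00227), and this call was lost with library totals alone (0.26) and without NC1 (adjusted p = 0.0242) or NC2 (adjusted p = 0.016). Cyclin A2 had libraries that overlapped in all groups. CCNA2 had 108, 106 and 103 CPM in NC, 106, 113 and 115 in EUC, 101, 106 and 108 in EPL, 97.7, 109 and 108 in SUC and 99.6, 102 and 104 in SPL, with a log2 fold change of -0.00 and an interval of -0.12 to 0.12. The kinases AURKA (0.23, adjusted p = 0.0225) and PLK1 (0.11) and cyclin B2 (CCNB2, 0.04) did not pass either, except AURKA without EUC1 (adjusted p = 0.00668).

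**Figure D3:**
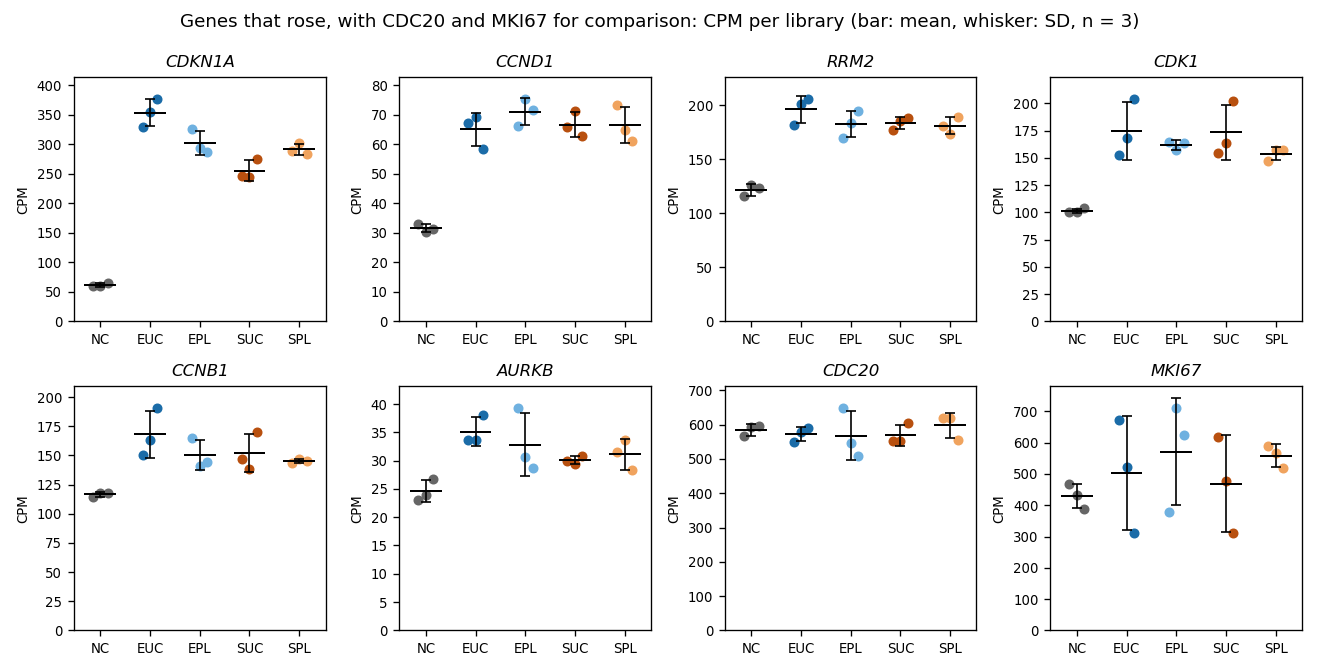
CPM per library in the 5 groups for 6 genes that rose and for CDC20 and MKI67, with bars for the mean and whiskers for the SD of 3 libraries. CDKN1A goes from 59.4 to 64.6 CPM in NC to 245 to 376 CPM in stimulated libraries, and MKI67 spreads from 310 to 710 CPM among the stimulated libraries.

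No gene of the spindle and its checkpoint passed edgeR's test. At an unadjusted p under 0.05 there were 2 of the 8, where 8882 of all 17198 tested genes were. They were CENPE, a kinetochore motor (0.29, adjusted p = 0.0144), and KIF11, the motor that separates spindle poles (0.24, adjusted p = 0.016). DESeq2 called both higher. Both passed in edgeR without EUC3 (adjusted p of 0.00167 and 0.00807) or without EPL1 (0.00685 and 0.00132), and CENPE also without the filter on low counts (0.00708). CENPE, with the highest estimate of the list, had 55.5, 52.6 and 50.2 CPM in NC, 73.8, 71.8 and 55.6 in EUC, 60.6, 73.1 and 71.6 in EPL, 68.2, 55 and 56.8 in SUC and 62.8, 61.8 and 65.4 in SPL. SUC2 had less than NC1, while most stimulated libraries had more. CENPF, which binds kinetochores in G2 and mitosis, had the lowest estimate of the list. It had 256, 236 and 224 CPM in NC, 231, 210 and 150 in EUC, 175, 252 and 236 in EPL, 233, 210 and 163 in SUC and 210, 203 and 210 in SPL, and its log2 fold change of -0.21 had an interval of -0.47 to 0.05. The checkpoint kinases BUB1, BUB1B and TTK, survivin (BIRC5) and the anaphase activator CDC20 had log2 fold changes of -0.02, -0.07, 0.05, 0.11 and -0.02. Per kilobase of exon, CDC20 was the highest of all 46 genes in NC, at 291 ± 8.57 CPM, followed by MCM3 at 173 ± 3.38.

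MKI67, the antigen used to mark dividing cells, had 467, 434 and 388 CPM in NC, 673, 522 and 310 in EUC, 379, 710 and 626 in EPL, 620, 478 and 310 in SUC and 590, 567 and 519 in SPL. The libraries EUC3, SUC3 and EPL1 were the only stimulated ones below all 3 of NC. Over all libraries the log2 fold change of 0.28 had an interval of -0.16 to 0.73 (adjusted p = 0.295), while without the filter on low counts MKI67 passed as higher (0.29, adjusted p = 0.00202). TOP2A, the topoisomerase that untangles chromosomes, had 403, 390 and 386 CPM in NC, 393, 402 and 341 in EUC, 348, 421 and 419 in EPL, 393, 385 and 355 in SUC and 390, 369 and 399 in SPL, with a log2 fold change of -0.03. Its lowest stimulated values were those of the same 3 libraries.

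These 3 are among the 4 libraries of the smaller cluster, EUC2, EUC3, EPL1 and SUC3. Without the 4, 13 of the 45 genes rose and 15 fell (28.9% and 33.3%), where 22% of the 18591 genes then tested rose and 22.2% fell. MKI67 then rose by 0.51 (adjusted p = 5.59e-09), CCNE1, CCNE2, CENPE and KIF11 also passed as higher, and CDC6, PCNA, TYMS, E2F1 and CDK4 passed as lower. The licensing genes that fell over all libraries fell without them too. The part of ribosomal protein reads in this was not tested. Without the 4 libraries EUC held EUC1 alone, so its own spread could not be measured.

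The single groups differed in how many genes passed, while all 4 shared the strongest changes. In EUC 9 genes rose and 9 fell, where 16.5% of all tested genes rose and 14% fell. In EPL 6 rose and 9 fell (16% and 13.2% of all), in SUC 6 rose and 5 fell (12.4% and 9.15%), and in SPL 4 rose and 5 fell (13.3% and 10.6%). The totals of the 45 genes were near those shares in most groups. Without NC1 the number that rose in EUC was 5, and the share of all tested genes was not computed for that setting. CDKN1A and CCND1 were DEGs in each group, where DEGs with higher levels made up 9.43% (EUC), 9.38% (EPL), 6.82% (SUC) and 7.76% (SPL) of all tested genes. Without EUC2, 1 gene was a DEG in EUC, again with no share of all tested genes computed. MCM3, MCM4, MCM6, CDT1 and UHRF1 fell in all 4 groups, and CDKN1A, CCND1, CDK1 and RRM2 rose in all 4. No gene passed in opposite directions in 2 groups, and 26 genes passed in none. Set against the shared NC libraries, MCM3 had log2 fold changes of -0.79 (EUC), -0.70 (EPL) and -0.60 (both SUC and SPL). In the order EUC, EPL, SUC, SPL, CDK1 had 0.78, 0.67, 0.77 and 0.60, and CCND1 1.04, 1.17, 1.08 and 1.08. Counting libraries instead of tests, 11 genes had all 12 stimulated libraries above the 3 of NC and 8 had all below, against 17.5% and 16.1% of all tested genes.

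**Figure D4:**
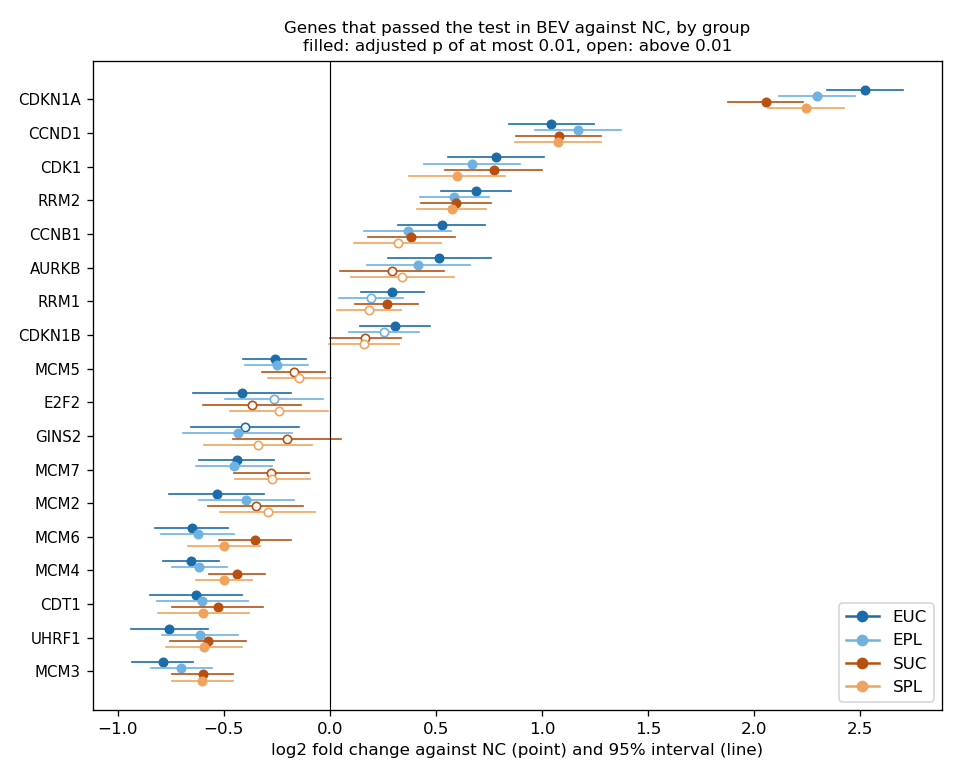
Log2 fold change against NC in EUC, EPL, SUC and SPL for the genes that rose or fell in the main contrast. Points are estimates, filled where the adjusted p was at most 0.01, and lines are 95% intervals. MCM3 ranges from -0.79 in EUC to -0.60 in SUC and SPL, and every gene keeps its side of 0 in all 4 groups.

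The RNA was sequenced to ask whether cells respond differently to BEVs from the PL method and from ultracentrifugation. Between EPL and EUC none of the 45 genes passed edgeR's test and none passed DESeq2's. An unadjusted p under 0.05 was found for 1 of the 45, and for 604 of all 17198 tested genes. Log2 fold changes ran from -0.27 to 0.19, and the 95% intervals spanned -0.56 to 0.74 in all. Of all tested genes 0% passed. Over the 10 genes of licensing and the helicase, log2 fold changes ran from -0.04 to 0.14. Intervals are given for MCM3 and MCM4, which had smaller SEs in the main contrast than MCM5, MCM6 and MCM7. MCM3 differed by 0.09 (interval -0.06 to 0.23) and MCM4 by 0.04 (-0.09 to 0.17). CDKN1A, the gene with the lowest p, was lower in EPL by 0.23 on the log2 scale (interval -0.40 to -0.06, adjusted p = 0.947). Between SPL and SUC again none of the 45 genes passed with either tool, where 0.00581% of all tested genes passed as higher in edgeR. An unadjusted p under 0.05 was found for 1 of the 45, and for 1000 of all 17198. MCM3 differed by -0.00 (-0.15 to 0.14), MCM4 by -0.06 (-0.19 to 0.07), and CDKN1A was higher in SPL by 0.19 (0.02 to 0.36, adjusted p = 0.814). The test of whether the difference between methods differed between species passed for none of the 45 genes in edgeR or DESeq2. Under an unadjusted p of 0.05 was 1 of them, CDKN1A at -0.42 (adjusted p = 0.99996), where 659 of all 17198 tested genes were. These intervals leave room for changes of up to the sizes given, and they do not show that the methods act alike.

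In the contrast of both E. coli groups with both S. aureus groups, dose changed together with species, so the effects of species and dose cannot be told apart. CDKN1A was the only one of the 45 genes to pass, higher by 0.26 with E. coli BEVs (SE 0.0561, interval 0.14 to 0.38, adjusted p = 0.0073), where 2.87% of all tested genes passed as higher and 1% as lower. The E. coli libraries had 287 to 376 CPM and the S. aureus libraries 245 to 302, with overlap. This call was lost in 15 of 22 other settings, without SUC2 for example (adjusted p = 0.0382). All 10 licensing genes had lower estimates with E. coli BEVs, where 50% of all tested genes did, but none passed in edgeR. Of the 10, 4 had an unadjusted p under 0.05, as did 2920 of all 17198 tested genes. DESeq2 called 2 of the 45 genes lower. MCM4 had 355 to 374 CPM in the E. coli libraries and 397 to 433 in those of S. aureus, without overlap (-0.17, SE 0.0436, adjusted p = 0.0273). MCM6 differed by -0.21 (SE 0.0571, adjusted p = 0.0322) and MCM3 by -0.14 (SE 0.0478, adjusted p = 0.0945).

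Other genes of the same processes, listed by function, were read in the main contrast for context. Of 23 further genes of origin licensing and firing, 2 rose and the other 21 did not pass. DBF4, which activates the CDC7 kinase, had 35 ± 1.72 CPM in NC and 45.3 to 48 in the groups (0.42, adjusted p = 0.000235), and GINS1 rose by 0.28. The median of this list was -0.08. Of 25 polymerase and fork genes 6 fell and 2 rose. PRIM1, the primase subunit, fell from 20.9 ± 0.75 CPM to 12.8 to 14.8 (-0.60, adjusted p = 8.6e-06) and POLD2, of polymerase delta, by 0.39, while the histone chaperone ASF1A rose by 0.69. Among 13 genes of nucleotide supply 5 fell and 3 rose. IMPDH1, of guanine nucleotide synthesis, fell by 0.81 from 160 ± 8.44 CPM, CTPS2, of CTP synthesis, fell by 0.79, and DCTD, a dCMP deaminase, rose by 0.56.

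Of 19 further G1/S regulators 5 fell and 3 rose. MYC, a driver of growth and division, had 201, 214 and 209 CPM in NC and 94.9 to 121 in the 12 stimulated libraries (-0.94, SE 0.0644, adjusted p = 2.02e-09). CDKN1C, which encodes the inhibitor p57, fell from 4.63 ± 0.0239 CPM to means of 1.14 to 1.86 (-1.73, adjusted p = 0.000176), opposite to CDKN1A and CDKN1B. RBL2, the pocket protein p130, fell by 0.48. Of 16 G2/M regulators 2 rose and 1 fell. MASTL, the Greatwall kinase of mitotic entry, rose from 28.3 ± 0.342 CPM to means of 63.9 to 76.5 (1.28, SE 0.0745, adjusted p = 2.2e-10), more than any gene of mitosis among the 46, MELK rose by 0.44, and the CDK1 inhibitor kinase WEE1 fell by 0.21.

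Of 25 kinetochore and centromere genes 5 rose and 1 fell, with CDCA8 at 0.41, SGO1 at 0.48 and CENPM at -0.56. Of 23 kinesin and spindle genes 4 rose, and the examples KIF23, KIFC1 and KIF2C had 0.40, 0.29 and 0.23. Of 16 cohesin and condensin genes 4 rose and 1 fell, with ESCO2, which acetylates cohesin in S phase, at 0.60, ESPL1 at 0.45 and STAG1 at 0.38. Of 17 genes of the anaphase-promoting complex 2 fell, ANAPC1 by 0.53 and ANAPC5 by 0.34. Among 20 genes known as targets of p53, the factor that also activates CDKN1A, 7 rose and 3 fell, with a median of 0.32. BTG2, an antiproliferative gene, went from 15.8 to 17.2 CPM in NC to 404 to 528 in stimulated libraries (4.82, SE 0.0762, adjusted p = 8.95e-17) and PLK3 rose by 1.46, while FDXR fell by 1.31.

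**Figure D5:**
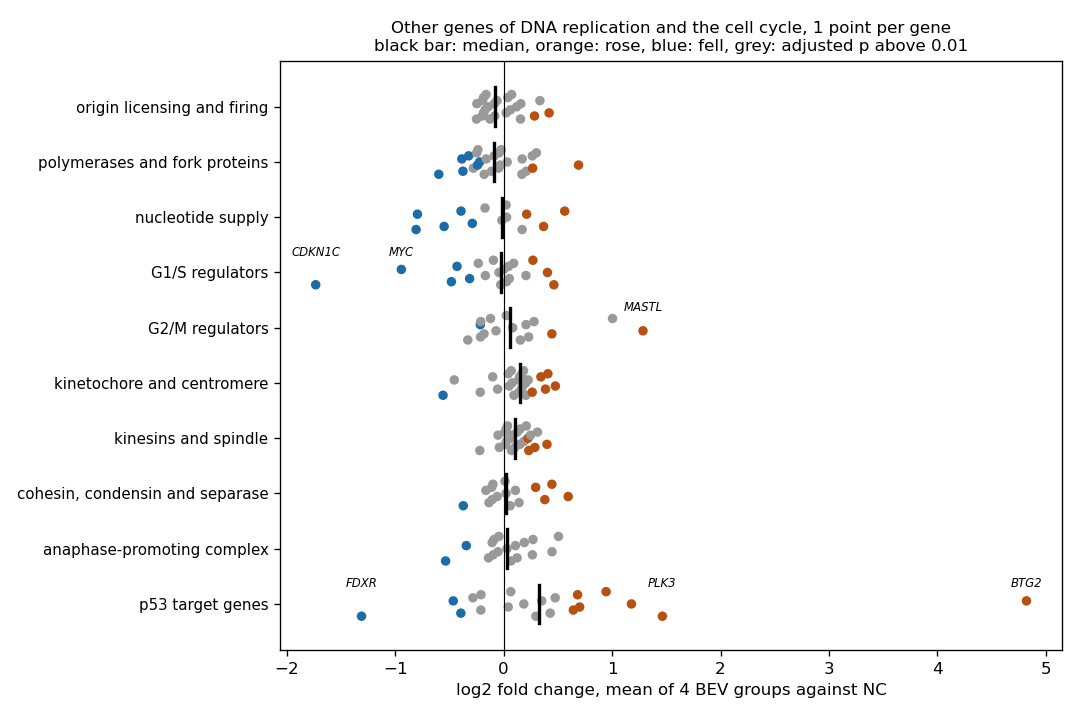
Log2 fold change of the other genes of replication, the cell cycle and p53 in the mean of the 4 stimulated groups against NC, 1 point per gene in 10 lists. Black bars are medians, and colours mark genes that rose, fell or had an adjusted p above 0.01. Most points lie near 0, with BTG2 at 4.82 and CDKN1C at -1.73 as the farthest to either side.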

How the data were processed

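RNA of THP-1 cells was sequenced from both fragment ends in 15 libraries, 3 for each of the groups NC, EUC, EPL, SUC and SPL, which were assigned by the titles in the deposited labels. RNA was extracted by Trizol and prepared with an NEB Next Ultra kit. The authors checked reads with FastQC (0.11.5 per the submitters' processing notes) and aligned them to hg38 with HISAT2 (2.1.0) at default parameters. They deposited whole-number read counts per Ensembl gene, without normalization. The notes also name StringTie 1.3.3b, DESeq 1.28.0 and featureCounts, with no role. Neither the strand setting nor the release of the annotation is given in these sources. Reads of genes that overlap on opposite strands may therefore be mixed or left uncounted, and reads of pseudogenes may be mixed. By GENCODE 44, 18 of the 46 genes share exon bases with another gene and 13 have named pseudogenes.

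The members were the rows whose symbol was in a list of 46 genes. The members and the lists of other genes were chosen with earlier results of these data known. From the deposited counts, 17198 of 60286 genes were kept with filterByExpr and fitted with edgeR 4.0.16 in R 4.3.3 (TMM, glmQLFit, glmQLFTest) over all 15 libraries, without a block. There were 9 contrasts. The common biological coefficient of variation was 0.118. The test was run first on simulated counts with known changes. Those changes were larger than the ones of most genes that rose or fell here, and smaller ones were not simulated. CPM are counts scaled to TMM-normalized library sizes. Library totals were 14399421 to 16637345, with a median of 15831655, and no 2 libraries agreed within sampling noise. Values per library are given for members that were DEGs against NC or passed between methods or species, for the highest and lowest estimate of each role, and for CCND1, CCND2, CCND3, CDKN1A, CDKN1B, PCNA, MKI67 and CDK1. MCM4, MCM5, MCM6, CDT1 and GINS2 were added after their values were seen. From each other list up to 3 genes with the largest changes among those that passed, at a mean of at least 1 CPM, were named. Alternatives were DESeq2 1.42.0, RLE size factors, no filter, a replicate block, a fit to the compared groups only and each library left out. Scaling by totals alone, and leaving out EUC2, EUC3, EPL1 and SUC3, were added after seeing the data. Replicate numbers were not used to pair libraries.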

Additional observations from a re-analysis of the deposited data

Results flagged for a closer look

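CDKN1A, which encodes p21, was higher with E. coli than with S. aureus BEVs by 0.26 on the log2 scale (SE 0.0561, adjusted p = 0.0073 in edgeR's quasi-likelihood test). It was singled out because the difference between the groups passed its own test, which no other of the 45 tested genes did. The dose was 1 μg/mL for E. coli and 10 μg/mL for S. aureus, so species and dose cannot be told apart. The lowest E. coli library had 287 CPM and the highest S. aureus library 302. Over the other 22 settings the difference was 0.20 to 0.29, with adjusted p up to 0.0382, and it missed the threshold in 15 of them.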

How the results depend on the processing

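Of the 18 genes that rose or fell, 12 kept their direction and passed under all 22 other settings, namely MCM2, MCM3, MCM4, MCM6, MCM7, CDT1, UHRF1, RRM2, CCND1, CDKN1A, CDK1 and CCNB1. The calls of MCM5, GINS2, RRM1, E2F2, CDKN1B and AURKB were lost under at least 1. CCND2 had too few reads to test. The next lowest counts were those of TYMS, 219 to 352 reads a library, and what more depth would change was not tested. Of its 2421 exon bases 967 are shared with ENOSF1 on the opposite strand, and the effect on its counts was not tested. Agreement between libraries with the same replicate number was mixed, highest for EUC3 with SUC3 and lowest for EUC1 with EPL1. Whether the numbers stand for shared handling was not tested. The correlation of deviations over 30 pairs of libraries with the same number was -0.452 to 0.525, above 0.1 in 7, and 9 of 15 libraries correlated best with their own number. With the replicate block 7 genes rose and 10 fell against NC, where 17.9% and 16.9% of all tested genes did. Without the block 8 rose and 10 fell, and CDKN1B was the call lost with it (adjusted p = 0.0109).

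Scaled by library totals alone, 5 genes rose in the main contrast with 1 DEG higher, 5 rose in EUC, 9 fell in SUC, 10 fell in SPL, 1 was a DEG higher in each of EUC, SUC and SPL, and 1 was lower with E. coli than with S. aureus. Without EUC2, EUC3, EPL1 and SUC3, 13 rose in the main contrast, 14 fell in EUC, 11 rose in EPL, 10 rose and 9 fell in SUC, 12 rose and 11 fell in SPL, and 2 were higher and 5 lower with E. coli. With only the compared groups in the fit 12 rose and 11 fell in SPL, and 0 were higher with E. coli, as without the filter on low counts. DESeq2 called 8 lower in SUC and 2 lower with E. coli. Leaving out 1 library at a time gave 5 to 12 higher in the main contrast, where 14 to 18.6% of all tested genes were. In EUC it gave 5 to 10 higher and 1 to 2 DEGs higher, and with E. coli 0 to 1 higher and 0 to 1 lower. The cause of these moves was not tested.

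Signs reversed only for genes that had not passed. With library totals alone the log2 fold changes were -0.078 for CDC45, -0.093 for POLA1, -0.022 for FEN1, -0.094 for CCNB2, -0.019 for PLK1, -0.086 for TTK and -0.023 for BIRC5. Without the 4 libraries they were -0.013 for CDC45, -0.024 for FEN1, 0.095 for CDK6, -0.046 for CCNB2, 0.033 for BUB1 and 0.019 for TOP2A. CCNA2 had 0.0054 with DESeq2 and without the filter, and 0.0052 with RLE size factors. Leaving out 1 library gave ranges of -0.0070 to 0.11 for POLA1, -0.042 to 0.044 for CDK6, -0.021 to 0.017 for CCNA2, -0.0026 to 0.073 for CCNB2, -0.066 to 0.033 for BUB1 and -0.048 to 0.0011 for CDC20.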
